A study of Arabidopsis thaliana with 4 samples.

Results

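The genes described here are the 43 nuclear genes for the chlorophyll-binding antenna and the protein subunits of the photosystems in Arabidopsis thaliana, out of 27444 protein-coding genes on the 5 nuclear chromosomes. They were taken by locus identifier: 6 LHCA genes (LHCI antenna), 9 genes of the major LHCII antenna (LHCB1 to LHCB3), 6 genes of the minor antenna (LHCB4 to LHCB7), 12 PSA genes (photosystem I subunits) and 10 PSB genes (photosystem II subunits). The table of RefSeq genes lists all 43 as coding genes under a name or synonym of their family. Chromatin immunoprecipitation and sequencing (ChIP-seq) with FLAG-M2 beads had been done on whole seedlings grown for 10 days under continuous light on MS plates and fixed with formaldehyde. FLAG-RGA, the tagged wild-type protein, and FLAG-rga11, a tagged mutant form, were each in a sly1 dP background. The control given for FLAG-rga11 was sly1 dP, and that given for FLAG-RGA was RGA sly1 dQ. The titles of these controls read control of Frga11 sly1 dP and control of FRGA sly1 dP. Each of the 4 groups had 1 library, so no difference between lines has a replicate check and no p-value is given. The labels give neither the promoter of the tagged genes nor the meaning of dP and dQ.

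DELLA proteins such as RGA restrain growth from within the nucleus; they have no DNA-binding domain of their own and reach chromatin through other transcription factors. Gibberellin leads to their breakdown by way of the F-box protein SLY1. The light-harvesting proteins hold chlorophyll and pass light energy to the reaction centres of photosystem I and photosystem II, which move electrons from water to ferredoxin. The reaction centre cores are encoded in the chloroplast, and most of the antenna and many peripheral subunits in the nucleus. The nuclear genes are strongly expressed in green tissue, and GLK transcription factors are among their activators.

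A gene was counted as marked when the highest point (summit) of a peak fell in the gene or at most 1 kb from it. For each peak the authors gave a fold, which sets ChIP coverage against control coverage where the peak is highest, and a −log10 q. The ChIP fragments over a summit and the control level, expressed as a multiple of the genome background in the call, were solved from the fold and p that the authors gave. Intervals on fragments are exact 95% Poisson intervals and cover counting error only. There were 6116 wild-type and 505 mutant peaks, from ChIP libraries with a mean of 14.5 and 15.3 fragments per base. Each fold was taken against the control of its own call, so folds of the lists stand side by side here and are not compared. The control named inside the mutant list differs from the labels, so which library it was is not settled.

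In the wild-type list 30 of the 43 photosystem and light-harvesting genes were marked (69.8%), against 23.2% of all coding genes. The mark lay mostly in the gene itself: 27 of the 43 genes (62.8%) had a summit inside, against 13.2% of all coding genes. In the mutant list 4 of the 43 were marked (9.3%), against 1.79% of all coding genes, and 3 had a summit inside (6.98%, against 1.22%). The members are short genes, from 720 to 3207 bp long, with a median of 1404 bp against 2078 bp for all coding genes. Among the 19074 coding genes in that range of length the marked shares were much the same, 23.4% (wild-type list) and 1.89% (mutant list).

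The peaks at these genes were weak by fold. All 37 wild-type peaks at members had a fold under 3, from 1.31 at LHCB1.3 to 2.96 at LHCB4.3, with a median of 2.01, against a median of 2.37 over the whole list. No member was marked at a fold of 3 or more, where 4.22% of all coding genes were. In the lower 50% of the list by fold 26 members were marked (60.5%, against 13.5% of all coding genes). In the upper 50% by fold 6 were (14.0%, against 11.7%), which is near the background share. At a −log10 q of 10 or more 7 members were marked (16.3%, against 6.54%).

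**Figure D1:**
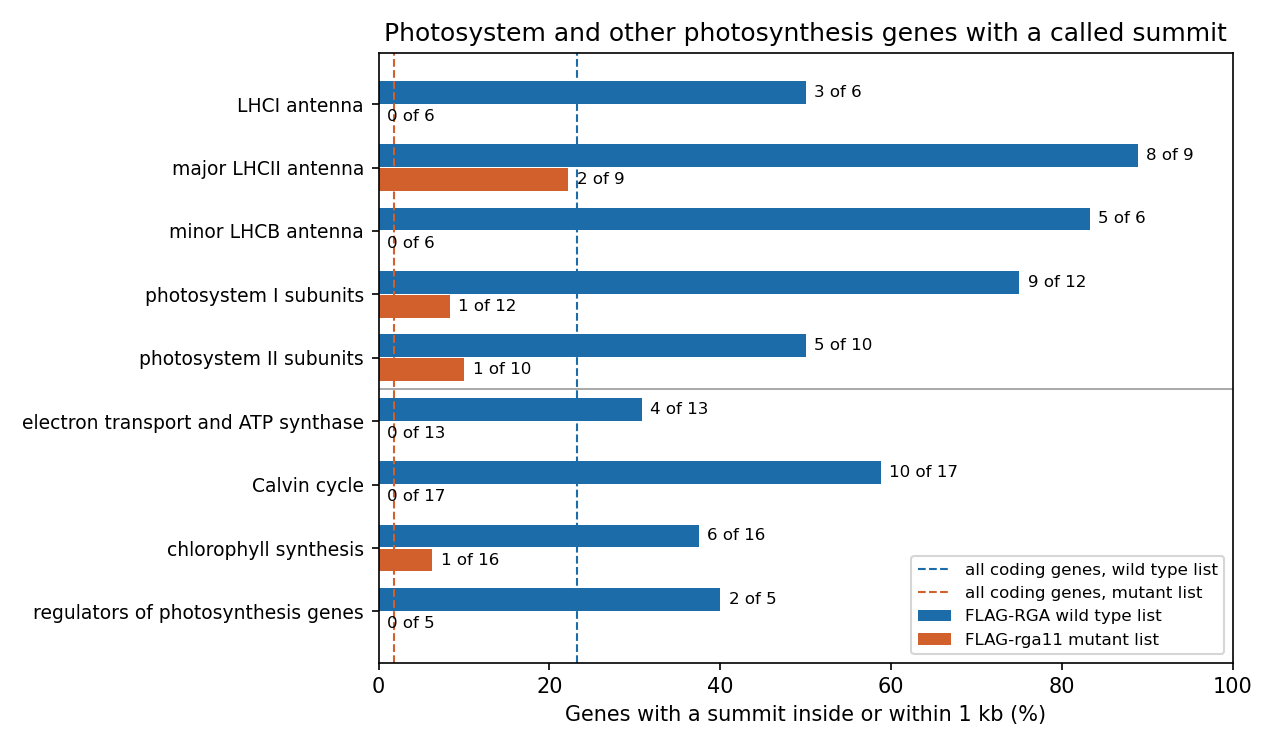
Bars give the percentage of the genes in each group with a summit inside the gene or within 1 kb of it, with the count of genes beside each bar, in the FLAG-RGA wild-type list (blue) and the FLAG-rga11 mutant list (orange). Dashed lines mark the shares over all coding genes, 23.2% and 1.79%. The 5 groups above the grey line are the photosystem and light-harvesting genes and the 4 below it other photosynthesis genes. All of them lie above the blue line, from 30.8% (electron transport and ATP synthase) to 88.9% (major LHCII antenna).

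The major LHCII antenna, the trimeric complex that holds much of the chlorophyll of the thylakoid, was marked at 8 of its 9 genes in the wild-type list, in each case inside the gene. All 5 LHCB1 genes were marked, and they are close copies of each other. LHCB1.1 (AT1G29920), LHCB1.2 (AT1G29910) and LHCB1.3 (AT1G29930) lie side by side on chromosome 1, and LHCB1.4 (AT2G34430) and LHCB1.5 (AT2G34420) on chromosome 2. How the authors placed fragments that match several copies is not stated by any label or header. The values of single LHCB1 copies are thus uncertain, as is the counting of each copy as a separate mark. Sequences were not at hand, so whether the same limit holds for the LHCB2 genes was not tested.

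LHCB1.3 had 469 wild-type ChIP fragments over its summit at 10478266 (428 to 513) and the lowest fold of any member, 1.31. The control there was at 24.8 times the genome background, the highest at any member. LHCB1.1 had 182 fragments (157 to 210) at 10475707 and a fold of 1.77, with control at 7.08 times background. These summits thus had many fragments in the ChIP library and also in its control.

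LHCB1.2 had 100 fragments (81.4 to 122) at 10472904 and a fold of 1.63. LHCB1.5 had 181 (156 to 209) at 14523303 on chromosome 2 and a fold of 1.53. None of these 4 copies had a mutant summit within 1 kb. The nearest mutant summit to LHCB1.5 lay 1547 bp away, within the neighbouring LHCB1.4.

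LHCB1.4 was marked in both lists. Its wild-type peak (chr2:14524853-14525027) had 149 fragments (126 to 175) and a fold of 1.47, with control at 7.01 times background. Its mutant peak (chr2:14524935-14525181) had 250 fragments (220 to 283) and a fold of 1.94, with control at 8.32 times the lower background of that call. The summits lay 146 bp apart.

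The LHCB2 genes encode the other main subunit of LHCII, whose phosphorylation lets the antenna move between photosystems. LHCB2.2 (AT2G05070) was likewise marked in both lists, with 85 wild-type fragments (67.9 to 105), a fold of 2.45 and control at 2.36 times background. In the mutant list it had 134 fragments (112 to 159), a fold of 2.00 and control at 4.3 times background, with summits 82 bp apart. LHCB2.1 (AT2G05100) was marked in the wild-type list alone, with 93 fragments (75.1 to 114) and a fold of 2.16. LHCB2.3 (AT3G27690) was the only gene of this group without a mark, its nearest wild-type summit being 11374 bp away. LHCB3 (AT5G54270), whose product is a further subunit of the trimers, had 103 fragments (84.1 to 125) and a fold of 1.60 in the wild type and no mutant summit.

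The minor antenna group includes the single proteins that link LHCII to the photosystem II core. It was marked at 5 of 6 genes in the wild-type list and at none in the mutant list, where 1.79% of all coding genes were marked. All 3 LHCB4 genes, for the protein CP29, had a summit inside. LHCB4.1 (AT5G01530) had 187 fragments (161 to 216), a fold of 1.87 and a −log10 q of 11.8, with control at 6.87 times background. LHCB4.2 (AT3G08940) had 159 fragments (135 to 186) and a fold of 1.55, with control at 7.08 times background. LHCB4.3 (AT2G40100) differed from both: its summit lay 56 bp inside an end of the gene, with 54 fragments (40.6 to 70.5), control at 1.22 times background and the highest fold of any member, 2.96.

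LHCB6 (AT1G15820), for CP24, had a summit inside with 138 fragments (116 to 163), a fold of 2.05 and a −log10 q of 11.1. Its second summit lay 699 bp outside and inside the neighbouring AT1G15830. LHCB7 (AT1G76570) was marked only by a summit 491 bp outside it (fold 2.18), which lay inside CP12-3. LHCB5 (AT4G10340), for CP26, was 130865 bp from the nearest wild-type summit, the longest such distance of any member.

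The LHCI antenna, the belt of proteins on photosystem I, was marked at 3 of 6 genes in the wild-type list. In the mutant list it was marked at none, against 1.79% of all coding genes. LHCA2 (AT3G61470) had a summit inside with 166 fragments (142 to 193) and a fold of 1.77, with control at 6.47 times background, and another 262 bp outside with 41 fragments (29.4 to 55.6) and a fold of 2.35. LHCA4 (AT3G47470) had a summit inside with 77 fragments (60.8 to 96.2) and a fold of 2.04. LHCA3 (AT1G61520) was marked only by a summit 600 bp outside (fold 2.54), which lay nearer to AT1G61540. LHCA1 (AT3G54890), LHCA5 (AT1G45474) and LHCA6 (AT1G19150) had none, with the nearest wild-type summits 5812, 8024 and 7137 bp away. LHCA5 and LHCA6 are low-abundance antenna proteins known for joining photosystem I to the NDH complex.

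**Figure D2:**
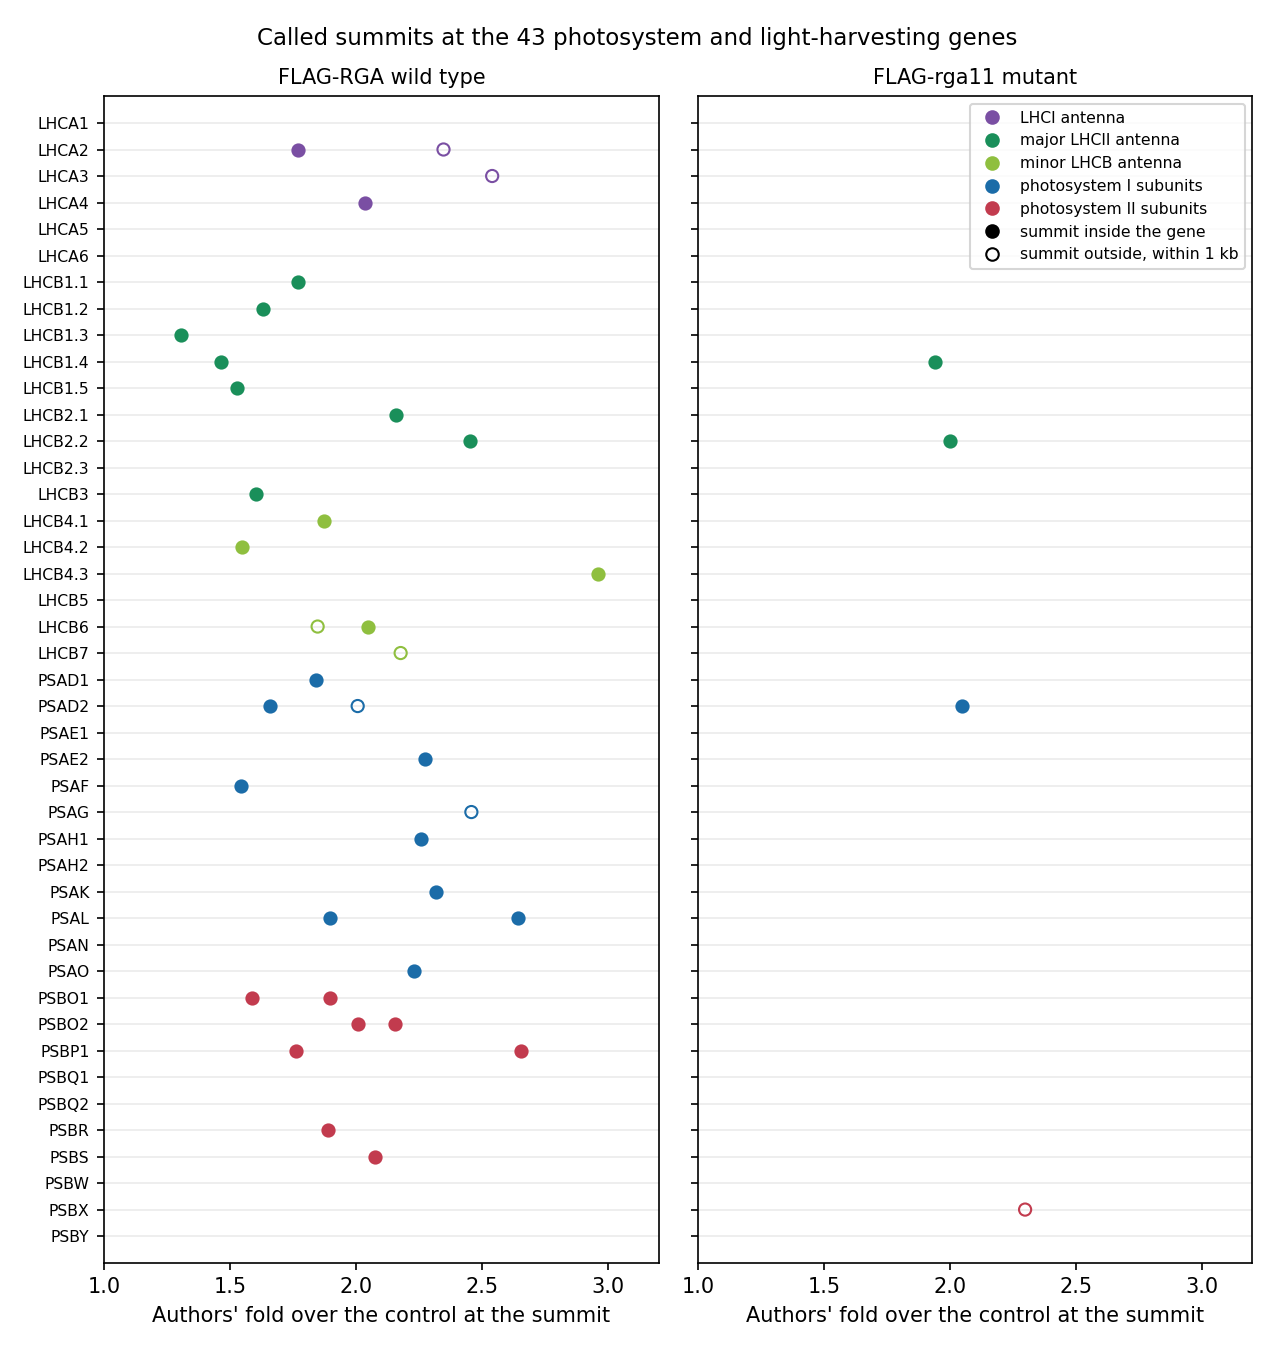
Each row is a member, and each point a called summit at that gene, placed by the authors' fold over the control of its own call (left, FLAG-RGA wild type; right, FLAG-rga11 mutant). Filled points lie inside the gene, open points outside it within 1 kb, and colours give the complex. The wild-type points run from 1.31 to 2.96, and the mutant list has 4 points.

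Photosystem I subunit genes were marked at 9 of 12 in the wild-type list, 8 of them inside. PSAD1 (AT4G02770) and PSAD2 (AT1G03130) encode the subunit at which ferredoxin docks. PSAD1 had 218 wild-type fragments (190 to 249), a fold of 1.84 and a −log10 q of 13.2, with control at 8.17 times background. PSAD2 was marked inside in both lists, with 141 fragments (119 to 166), a fold of 1.66 and control at 5.85 times background in the wild type. In the mutant list it had 181 fragments (156 to 209), a fold of 2.05 and control at 5.69 times background, with the summits 59 bp apart. A second wild-type summit of PSAD2 lay 922 bp outside it, inside RAB28.

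PSAL (AT4G12800), a subunit on the side of the complex where LHCII can dock, had a summit at each side of its middle. These had 90 fragments (72.4 to 111) with a fold of 2.64 and 195 fragments (169 to 224) with a fold of 1.90, at control levels of 2.31 and 7.08 times background. Both had a −log10 q above 12, of 12.7 and 12.9. PSAK (AT1G30380), PSAE2 (AT2G20260), PSAH1 (AT3G16140) and PSAO (AT1G08380) had folds of 2.32, 2.27, 2.26 and 2.23, with 97, 84, 59 and 67 fragments and control levels of 2.86, 2.52, 1.77 and 2.04 times background. PSAF (AT1G31330), where plastocyanin docks, had 154 fragments (131 to 180) and a fold of 1.54, with control at 6.87 times background.

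PSAG (AT1G55670) was marked only by a summit 917 bp outside it, inside AT1G55675 (fold 2.46). PSAE1 (AT4G28750), PSAH2 (AT1G52230) and PSAN (AT5G64040) had no wild-type summit within 1 kb, the nearest lying 4182, 16634 and 18507 bp away. Both gene copies were thus marked for subunit D, and a single copy each for subunits E and H.

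Photosystem II subunit genes were marked at 5 of 10 in the wild-type list, all inside. The oxygen-evolving complex, the extrinsic proteins that stabilise the manganese cluster, had marks at PSBO1 (AT5G66570), PSBO2 (AT3G50820) and PSBP1 (AT1G06680), each with a pair of summits inside the gene. PSBP1 had 169 fragments (144 to 196) with a fold of 1.76 and 93 (75.1 to 114) with a fold of 2.65, the latter at a −log10 q of 13.3. PSBO1 had folds of 1.90 and 1.59, with 96 and 99 fragments, and PSBO2 had folds of 2.15 and 2.01, with 52 and 82 fragments. PSBQ1 (AT4G21280) and PSBQ2 (AT4G05180), which complete this complex, were 4455 and 9770 bp from the nearest wild-type summit.

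PSBR (AT1G79040) had 64 fragments (49.3 to 81.7) and a fold of 1.89. PSBS (AT1G44575), the sensor of lumen acidity for non-photochemical quenching, had 48 fragments (35.4 to 63.6) and a fold of 2.07 at the middle of its gene, the longest of the 43. The small membrane subunits PSBW (AT2G30570), PSBX (AT2G06520) and PSBY (AT1G67740) had no wild-type summit, the nearest lying 11025, 23664 and 21678 bp away. PSBX had the fourth mutant mark, 745 bp outside the gene with 81 fragments (64.3 to 101) and a fold of 2.3; that summit lay inside VPS2.1.

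Several marked genes had more than 1 summit. In the wild-type list 7 of the 43 genes (16.3%) had at least 2 summits inside or within 1 kb, against 3.98% of all coding genes. Those shares also hold the higher marking of the members. Counted over marked genes alone, it was 7 of 30 members and 1093 of 6368 coding genes, which lie closer together. The 7 members were LHCA2, LHCB6, PSAD2, PSAL, PSBO1, PSBO2 and PSBP1. The count of marked members in the wild-type list was the same with a flank of 2 kb, 30, while the share of all coding genes rose to 30.3%. The outermost summits that counted were those of PSAG and PSAD2, at 917 and 922 bp, and among unmarked members the nearest wild-type summit lay 4182 bp away, from PSAE1. Of the 6 wild-type summits outside members 4 lay inside another coding gene. With each summit counted for its nearest coding gene only, 27 members were marked (62.8%), against 16.9% of all coding genes.

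Most summits at members lay inside the gene. Of the 37 wild-type summits at members 31 lay inside the member (83.8%). Of all wild-type summits at coding genes 74.4% lay inside any coding gene, which is a wider rule. By that rule 4 of the 6 summits outside members would also count as inside. Of these 31, 5 (16.1%) lay under 250 bp from the nearer end, 18 (58.1%) between 250 and 500 bp, and 8 (25.8%) at 500 bp or deeper. Over the 2901 wild-type summits inside coding genes of the same range of length, the shares were 25.7%, 42.1% and 32.2%, so the members held more in the middle class and fewer in both others. The median depth was 366 bp in the members, or 27.1% of the gene's length, against 385 bp and 21.3% over those genes. Only the range of length was matched: 17 of the 43 members were 1500 bp or longer, against 13174 of the 19074 coding genes. Depth in bp is limited by gene length, and the part of length in these shares was not tested. The strand of the genes was not known here, so a start cannot be told from an end.

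**Figure D3:**
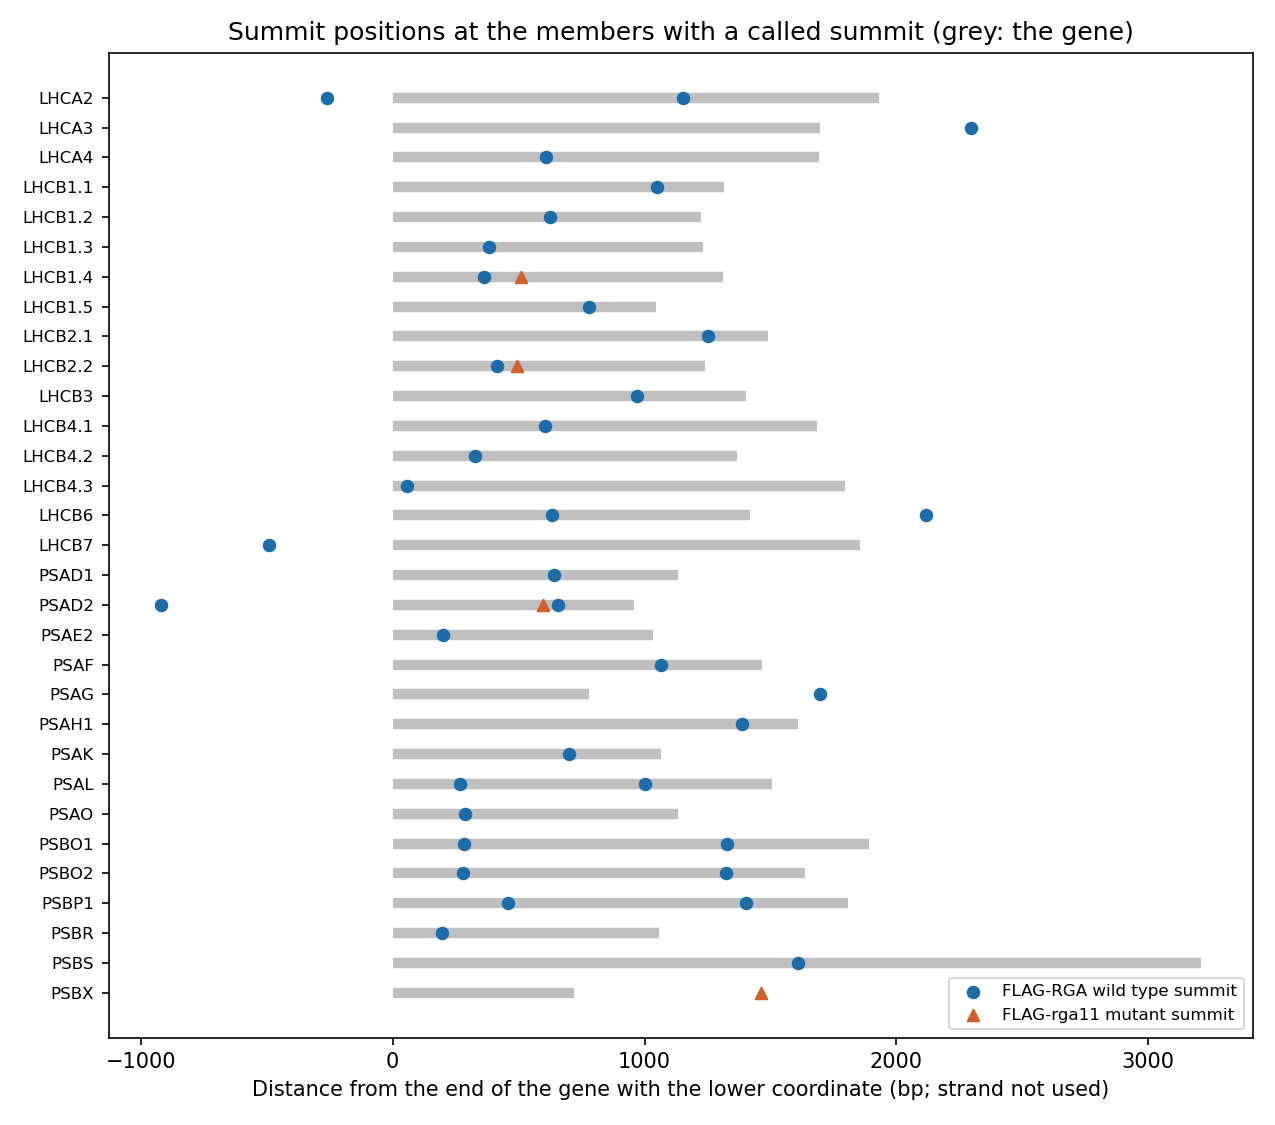
Grey bars are the 31 members with a summit in either list, drawn to their length in bp from the end with the lower coordinate; circles are FLAG-RGA wild-type summits and triangles FLAG-rga11 mutant summits. Of the 37 wild-type summits 31 lie inside the bars. The mutant triangles at LHCB1.4, LHCB2.2 and PSAD2 lie within 146 bp of a wild-type circle.

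Control signal was high at many of these summits. Of the 31 wild-type summits inside members 12 had control over 5 times the genome background (38.7%), against 10.5% of wild-type summits inside coding genes of the same range of length. Marks of this kind were present at 12 of the 43 members (27.9%), against 1.65% of all coding genes. They lay in LHCA2, LHCB1.1, LHCB1.3, LHCB1.4, LHCB1.5, LHCB4.1, LHCB4.2, PSAD1, PSAD2, PSAF, PSAL and PSBP1. With those peaks left out 22 of the 43 were marked (51.2%, against 22.0% of all coding genes). Control was raised at the remaining member peaks too. Their median was 2.36 times background, against 1.57 over all wild-type peaks with control at most 5 times background. None of the 6 summits outside members had control over 5 times background.

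The lowest fold that was called fell as control level rose. A summit with control at the genome background was called from a fold of 2.2 upwards, and one with control over 5 times background from 1.17 upwards. Among peaks with control over 5 times background, the 12 at members had a median fold of 1.71 and the 406 of the whole list 1.64. Among the others, the 25 at members had a median fold of 2.16 and the 5710 of the whole list 2.41. The part of control signal in the marking of these genes was not tested, nor were transcript levels measured here.

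**Figure D4:**
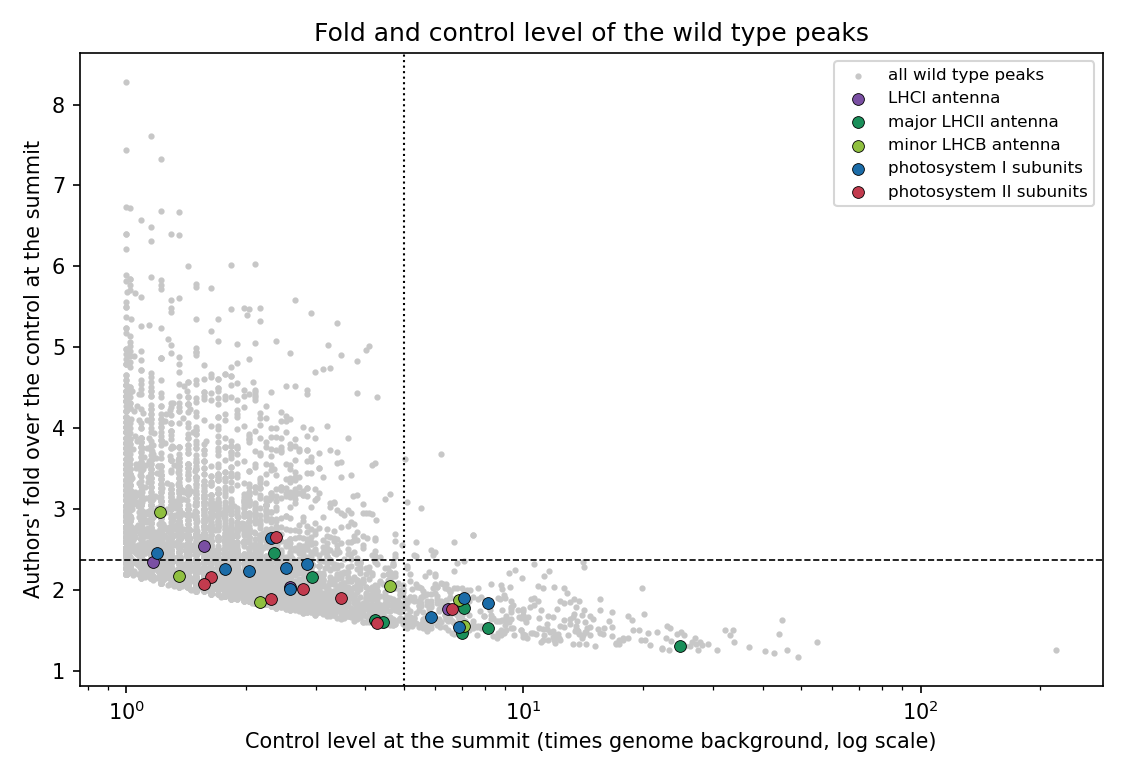
Each point is a wild-type peak, placed by the control level at its summit in multiples of the genome background (log scale) and by the authors' fold. Grey points are all 6116 peaks and coloured points the 37 at members; the dotted line marks 5 times background and the dashed line the median fold of 2.37. Of the member peaks 31 lie under the dashed line and 12 to the right of the dotted line.

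Marks called in both lines were few, and the mutant list held 505 peaks against 6116 in the wild-type list. Of the 37 wild-type peaks at members 3 overlapped a mutant peak (8.11%), against 4.73% of all wild-type peaks. These shares differed with control level. With control over 5 times background, 16.7% of the 12 peaks at members overlapped a mutant peak, against 34% of the 406 in the whole list. With control at most 5 times background the shares were 4% of 25 and 2.64% of 5710. The 3 lay inside LHCB1.4, LHCB2.2 and PSAD2. In the other direction, 3 of the 4 mutant peaks at members overlapped a wild-type peak (75%), against 56.6% of all mutant peaks. Members with a mark in both lists made up 6.98% of the 43, against 1.32% of all coding genes. The mutant call had a lower genome background, and its lowest −log10 p was 6.03 against 5.05 in the wild-type call.

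Other nuclear genes for photosynthesis were marked in the wild type at 22 of 51 (43.1%, against 23.2% of all coding genes) and in the mutant at 1 (1.96%, against 1.79%, which is near the background share). Calvin cycle genes were marked at 10 of 17 (58.8%), a higher share than the 50% of the LHCI antenna and of the photosystem II subunits. The highest folds there belonged to the genes for the small subunit of Rubisco: a single summit 111 bp outside RBCS2B (AT5G38420) and 985 bp outside RBCS1B (AT5G38430) had a fold of 5.11, and a summit inside RBCS3B (AT5G38410) had 3.05; RPE followed with 2.98. RBCS1A had no mark. Chlorophyll synthesis genes were marked at 6 of 16 (37.5%), led by the chlorophyllide a oxygenase gene CAO (3.17), the methyltransferase gene CHLM (2.72) and the protochlorophyllide reductase gene PORB (2.68). HEMA1, for the first committed enzyme of the pathway, had the 1 mutant mark (2.1). Genes for electron carriers and the ATP synthase were marked at 4 of 13 (30.8%), nearest of these lists to the background, with the plastocyanin gene PETE1 (2.67), the ferredoxin gene FD2 (2.02) and the Rieske protein gene PETC (1.96) highest.

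Of 5 regulators of photosynthesis genes 2 were marked in the wild-type list (40%, against 23.2% of all coding genes). None was marked in the mutant list, where 1.79% of all coding genes were. A share over 5 genes is coarse. GLK1 (AT2G20570) had a summit 406 bp outside the gene (chr2:8858029-8858291) with 129 fragments (108 to 153), a fold of 5.08, a −log10 q of 45.4 and control at 1.70 times background, and a weaker one inside (1.99). GLK2 (AT5G44190) had a summit inside with a fold of 2.39. No summit within 1 kb was called at GNC, CGA1 or HY5, the nearest wild-type summits lying 5294, 14046 and 10599 bp away. The strong GLK1 peak, outside the gene and at low control signal, had a fold above that of every peak at the photosystem and light-harvesting genes.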

How the data were processed

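Per the submitters' processing notes, Trimmomatic 0.39, Bowtie2 2.4.5, MACS2 2.2.7.1 and deepTools 3.1.3 were used with the TAIR10 genome. The deposited fold is a ratio of ChIP to control coverage with a pseudocount of 1; the −log10 p and −log10 q are likewise the authors' values, and the deposited score was not used. Peak numbers ran to 7873 and 778, so both lists hold part of the called peaks. 1 mutant summit had no values and was left out.

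Fragments and control level were solved from the deposited fold and p (Python 3.11.15, scipy 1.17.1), with ChIP coverage scaled by 1 (wild type) and by 0.470 (mutant). For 99.98% and 99.8% of peaks the solution met the deposited −log10 p to within 0.001. The method was tested on simulated data. Control level was set against a genome background of 14.5 and 7.21 fragments.

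Genes came from RefSeq (TAIR10.1), which was used for names and neighbours and taken to share nuclear coordinates with TAIR10. That table gives no strand or sequence, so the planned sequences are not shown. The members and lists were chosen with earlier results of these data known. Every member is named, as are the 3 highest folds of each other list and all regulators. With 1 library per group, shares are set beside all coding genes and no test was made.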

Additional observations from a re-analysis of the deposited data

How the results depend on the processing

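The share of members stayed above that of all coding genes however a summit was given to a gene. Against the 30 wild-type and 4 mutant members (23.2% and 1.79% of all coding genes), no flank gave 27 and 3 members (13.2% and 1.22% of coding genes), a flank of 500 bp gave 28 and 3 (18.7% and 1.41%), and 2 kb gave 30 and 6 (30.3% and 2.64%). The nearest gene alone gave 27 and 3 (16.9% and 1.38%), and any base of the peak 30 and 4 (24.2% and 1.96%). The counts fell with peak strength. A −log10 q of 5 or more left 22 and 2 members (16.4% and 1.04% of coding genes), and of 10 or more 7 and 0 (6.54% and 0.339%). In the wild-type list these were 51.2% and 16.3% of members, still above the shares of coding genes. The upper 50% by fold left 6 and 0 (11.7% and 1.01%), and the wild-type share of members, 14.0%, was near that of coding genes. There 4 of the 6 wild-type summits lay inside a member, in place of 31 of 37. Control at most 5 times background left 22 and 2 (22.0% and 1.37%). The 3 overlaps with mutant peaks were also 3 with summits within 200 bp and with an overlap of 50% of the shorter peak. No paired analysis was possible because each group had 1 library. The mutant counts at members rest on 4 peaks, and the part of the lower control coverage of that call (7.21 against 14.5 fragments) was not tested.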
